A study of Mus musculus with 778 samples.

Results

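The cytoplasmic ribosomal protein genes, which encode the protein parts of the ribosome, were taken by symbol from a table of counts in single mouse oocytes. The members were the rows whose symbol begins with Rpl or Rps and a digit, together with *Rplp0*, *Rplp1*, *Rplp2* and *Rpsa*. Symbols with a hyphen and the S6 kinases were left out. The rule found 89 genes of the 23201 rows, of which 54 name proteins of the large subunit and 34 proteins of the small subunit. The remaining member, *Rps19bp1*, encodes a nucleolar protein that binds *Rps19* and is not part of the ribosome. Of the 89 members, 11 are paralog copies of another member by symbol, and 77 are neither a copy nor *Rps19bp1*.

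The cytoplasmic ribosome is built from ribosomal RNAs and a fixed set of ribosomal proteins, most of them present as a single molecule in each ribosome, and in most cells the genes of these proteins are expressed as a group. A growing mouse oocyte fills its cytoplasm with ribosomes and with stored mRNA, stops transcription when it is fully grown, and supplies the early embryo with both. In most cells the mRNAs of ribosomal proteins begin with a run of pyrimidines, the 5′ terminal oligopyrimidine tract, through which mTORC1 and *Larp1* set how many of them are translated.

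Single oocytes of ICR wild-type mice had been picked by diameter and sequenced with unique molecular identifiers (UMIs), tags that let copies of 1 cDNA molecule be counted once. Non-growing oocytes (NGO, under 20 µm, 46 cells) came from mice aged 3 to 4 days. Growing oocytes of 30 to 45 µm (GO1, 51 cells), 50 to 55 µm (GO2, 26 cells) and 60 to 65 µm (GO3, 44 cells) and fully-grown oocytes (FGO, over 70 µm, 56 cells) came from mice aged 3 to 4 weeks, so that for NGO the stage and the age of the mouse cannot be told apart. The number of mice behind a stage is not given in the sources used here. Cells were drawn from 4 libraries that used the same 96 barcodes, all 96 of them in at least 2 libraries. The name of a cell gives its stage but not its library, so a stage was 1 pooled sample with no replicate, and no test between stages could be made.

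Values given in a row follow the stage order NGO, GO1, GO2, GO3, FGO. A stage held 24976634 to 64311908 UMIs, and the median cell 540432, 110146, 676786, 972294 and 792312 UMIs in stage order. GO1 and GO2 leaned on few cells, the 10 deepest holding 80.4% and 73.2% of their UMIs and 42.6% to 49.7% of those of the other stages. All 10 oocyte markers were present at every stage, with summed levels of 13578 to 25513 CPM, the counts per 1000000 UMIs. Granulosa markers summed to 16.5 to 43.9 CPM, stroma and theca markers to 4.37 to 15.2 CPM, and blood and endothelium markers to 9.33 to 51.1 CPM, with every globin at 0. CPM is a relative measure and says nothing of how much RNA an oocyte holds. UMIs stand for molecules, so CPM was not divided by gene length, and 95% intervals cover counting error only.

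A pair of copies shows how far a paralog differs in sequence from its parent. *Rpl39* and its copy *Rpl39l*, whose levels came closer together after NGO, have coding sequences of equal length with 23 mismatches, an identity of 85.3%. *Rps27* and *Rps27l*, of which only the copy was counted in numbers, have 255 coding bases with 61 mismatches, an identity of 76.1%. Both are shown 5′ to 3′ from GENCODE vM1 on NCBIM37 (mm9), with mismatches in capitals. The genes lie at chrX:34622515-34625397 (*Rpl39*, minus strand), chr16:10170319-10175004 (*Rpl39l*, plus strand), chr3:90016593-90017573 (*Rps27*, minus strand) and chr9:66793893-66797323 (*Rps27l*, plus strand).
Rpl39: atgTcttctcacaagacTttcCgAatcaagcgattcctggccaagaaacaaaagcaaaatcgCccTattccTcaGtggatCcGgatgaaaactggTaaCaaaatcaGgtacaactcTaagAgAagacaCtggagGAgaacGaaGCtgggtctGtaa
Rpl39l: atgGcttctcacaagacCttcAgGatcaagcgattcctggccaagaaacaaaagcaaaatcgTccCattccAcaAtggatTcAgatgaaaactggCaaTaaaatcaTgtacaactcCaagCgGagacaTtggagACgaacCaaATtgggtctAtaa
Rps27: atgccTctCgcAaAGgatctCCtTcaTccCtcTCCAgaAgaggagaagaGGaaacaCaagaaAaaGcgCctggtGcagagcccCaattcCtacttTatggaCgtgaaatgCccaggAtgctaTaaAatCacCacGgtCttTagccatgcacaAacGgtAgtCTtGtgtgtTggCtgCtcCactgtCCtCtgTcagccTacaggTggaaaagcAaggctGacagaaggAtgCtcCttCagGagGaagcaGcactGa
Rps27l: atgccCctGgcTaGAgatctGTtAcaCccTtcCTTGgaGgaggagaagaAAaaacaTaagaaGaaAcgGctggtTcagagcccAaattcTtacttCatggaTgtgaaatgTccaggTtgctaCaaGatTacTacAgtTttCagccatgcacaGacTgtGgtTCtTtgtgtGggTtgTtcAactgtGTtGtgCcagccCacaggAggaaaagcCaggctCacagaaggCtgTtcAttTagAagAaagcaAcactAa

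As a group, the ribosomal protein genes took their highest share of UMIs in non-growing oocytes and their lowest in GO2. The 89 members held 4.40%, 2.70%, 2.36%, 2.49% and 2.75% of the UMIs in stage order, with 95% intervals of 4.396 to 4.412 for NGO and 2.359 to 2.371 for GO2. In NGO this was 1 UMI in 22.7, and in GO2 1 in 42.3. The share in NGO was 1.63-fold that in GO1 (counting interval 1.625 to 1.635) and 1.60-fold that in FGO. After GO2 the share was higher again at each step, 1.05-fold in GO3 over GO2 and 1.10-fold in FGO over GO3.

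Medians of single cells put NGO highest and GO2 lowest as well, but placed GO1 above FGO, which the sums did not. The share per cell was 3.35% at the lowest, 4.48% at the median and 6.55% at the highest in NGO. The same values were 0.905%, 3.71% and 5.25% for GO1 and 0.646%, 2.44% and 3.33% for GO2. They were 2.10%, 2.51% and 3.96% for GO3 and 2.19%, 3.00% and 5.46% for FGO. By medians of cells the share in NGO was thus 1.21-fold that in GO1, and the share in GO1 1.52-fold that in GO2, whereas the sums put the larger difference before GO1 and gave 1.14-fold for GO1 over GO2. The stages overlapped cell by cell. Of the 51 GO1 cells, 43 lay under the NGO median and 15 under every NGO cell, and all 26 GO2 cells lay under the GO1 median. Of the 56 FGO cells, 48 lay above the GO3 median and 38 below every NGO cell.

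**Figure D1:**
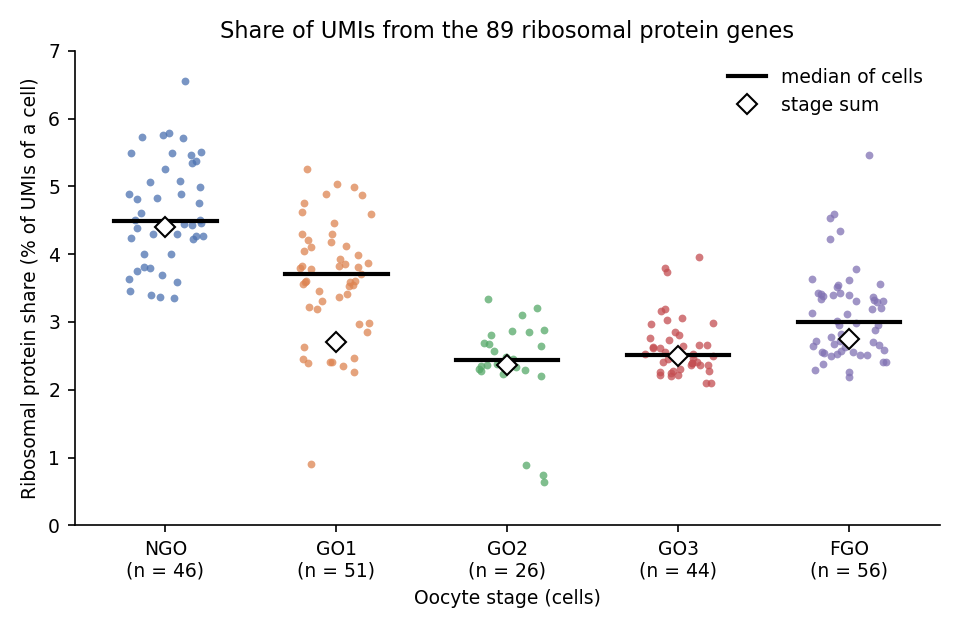
Share of the UMIs of each oocyte that came from the 89 ribosomal protein genes (y axis, percent), by stage (x axis); each point is 1 cell, the bar is the median of the cells and the open diamond the share in the summed UMIs of the stage. The cells of NGO lie between 3.35% and 6.55%, and in GO1 the stage sum (2.70%) sits well below the median cell (3.71%).

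The gap between sums and medians in GO1 went with depth. Across the cells of a stage, UMIs and ribosomal protein share had Spearman coefficients of -0.36, -0.58, -0.29, -0.43 and -0.67 in stage order, over 26 to 56 cells. Pearson coefficients with log10 UMIs were -0.31, -0.59, 0.03, -0.53 and -0.62, so deeper cells had lower shares at 4 stages by both measures and in GO2 by ranks alone. These cells share libraries and the share is computed from the depth itself, so the coefficients are descriptions. The 10 deepest GO1 cells together gave 2.46% and the other 41 cells 3.70%. The same split gave 4.04% and 4.67% for NGO, 2.31% and 2.51% for GO2, 2.32% and 2.64% for GO3, and 2.53% and 2.98% for FGO. Among cells of 100000 to 1000000 UMIs, a window chosen after seeing the data, the shares were 4.62%, 3.37%, 2.54%, 2.69% and 3.28% in stage order, over 36, 21, 14, 22 and 32 cells. NGO was highest and GO2 lowest in this window too.

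**Figure D2:**
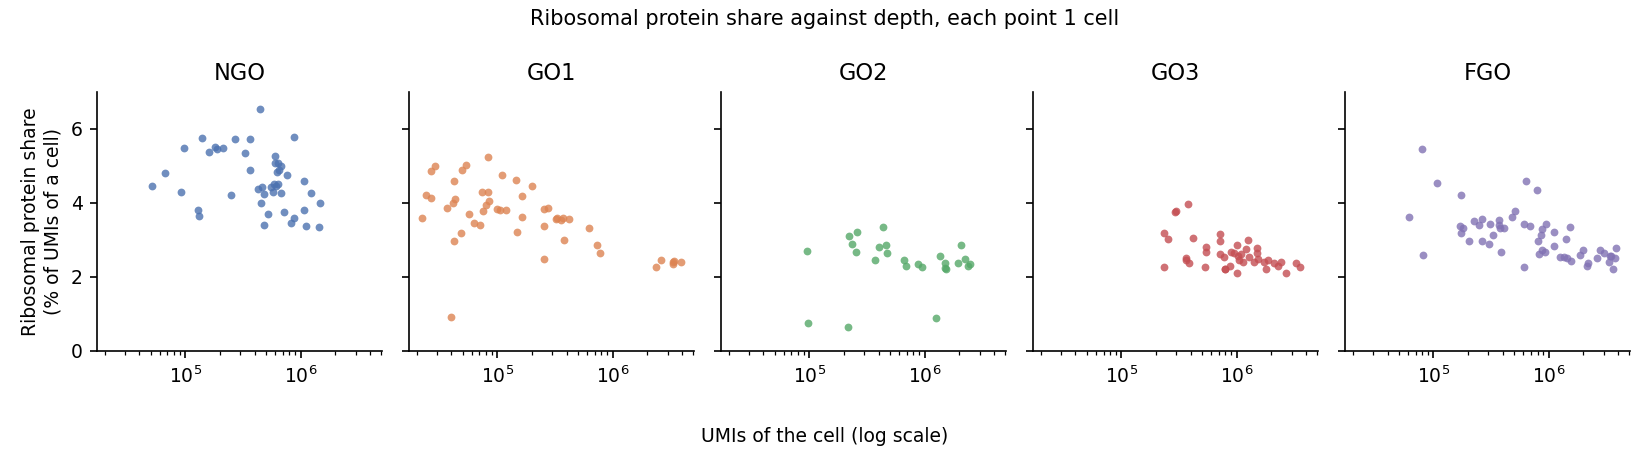
Ribosomal protein share of each oocyte (y axis, percent of its UMIs) against the UMIs of that oocyte (x axis, log scale), with a panel for each stage and 1 point per cell. Shares are lower in deeper cells of NGO, GO1, GO3 and FGO, with Spearman coefficients of -0.67 in FGO and -0.58 in GO1, and 3 GO2 cells and 1 GO1 cell lie under 1%.

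Oocytes of a stage differed in their shares. With every cell thinned to 20000 UMIs, the standard deviation of the share over cells was 0.769, 0.882, 0.690, 0.431 and 0.673 percentage points in stage order, while counting alone at that depth gave 0.107 to 0.145. The share lay under 1% in 4 cells. The GO1 cell (0.905%) had 39670 UMIs and granulosa markers at 176 CPM, the highest value of its stage, though few UMIs at this depth. Of the 3 GO2 cells (0.646%, 0.746% and 0.891%), the lowest pair had small-subunit UMIs at 1.02 and 1.13 times those of the large subunit and oocyte markers at 5702 and 5194 CPM, against 14632 CPM in the GO2 sum. The third had blood and endothelium markers at 92.3 CPM, the highest value of its stage. The part of these markers in the low shares was not tested.

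Large and small subunit genes moved together from cell to cell, but the balance between them differed among stages. Across the cells of a stage the summed shares of the subunits had Spearman coefficients of 0.93 to 0.96. Small-subunit UMIs were 0.641, 0.561, 0.527, 0.546 and 0.581 times the large-subunit UMIs in stage order. The medians of single cells were 0.636, 0.603, 0.531, 0.547 and 0.596, again highest in NGO and lowest in GO2, with GO1 and FGO in the other order. From NGO to GO1 the median log2 difference was -0.97 over 32 small-subunit members and -0.81 over 49 large-subunit members. Paralog copies are included for both subunits, and their part in the balance was not tested. Of the copies reaching 10 CPM, *Rpl37rt*, *Rpl39l*, *Rpl36al* and *Rpl7l1* were higher in the GO1 sums, and *Rpl22l1* and *Rpl10l* lower. In the small subunit, *Rps4l* (450.0 to 77.3 CPM) and *Rps27l* (759 to 678) were lower.

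At the level of single genes, the entry into growth was the step at which the most members moved. A change was called where a pair of stage sums lay 2-fold or more apart in CPM, the larger value being 10 CPM or above. Of the 89 members, 82 reached 10 CPM in at least 1 stage and 64 were at 100 CPM or more in all 5. From NGO to GO1, 37 of 82 members fell (45.1%) and 2 rose (2.44%), while among all 8527 genes tested 25.7% fell and 20.6% rose. The median log2 difference was -0.84 over the members and -0.15 over all genes. Relative to the median of all genes, the members were thus lower in GO1 by 0.70 on the log2 scale. Scaling by TMM, which put the median of all genes at 0.05, left 30 falls and 2 rises of 81 members and a member median of -0.68. With this scaling 21.6% of all genes fell and 24.5% rose. Over the same step the summed oocyte markers went from 25513 to 13578 CPM and the granulosa markers from 16.5 to 43.9 CPM. Blood and endothelium markers went from 9.33 to 40.6 CPM, of which *Pecam1* made up 4.604 and 37.6 CPM, and stroma and theca markers from 15.2 to 4.37 CPM. The part of these markers in the result was not tested.

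The weighting of cells mattered for the count of falls and less for the scarcity of rises. By the mean over cells, 28 members fell (34.1%), near the 34.6% of all genes, and 6 rose (7.32%) against 22.1%. Without the 10 deepest cells of each stage, 27 fell (32.9%) against 37.6% and 5 rose (6.10%) against 21.6%. The excess of falls over all genes was thus seen in the stage sums alone of these 3 weightings, whereas the member median stayed below that of all genes, at -0.70 against -0.36 and at -0.70 against -0.44. Of the 37 members that fell in the sums, 25 were also at least 2-fold lower by the medians of cells, and both members that rose did so by the medians as well. In 15 members the direction turned, lower in the sums of GO1 and higher by the medians of GO1 cells. *Rpl41*, a peptide of the large subunit and the member with the most UMIs, went from 1946 to 1363 CPM in the sums, whereas its median went from 1965 CPM over NGO cells to 2460 CPM over GO1 cells.

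The deepest falls were those of *Rpl9*, *Rps23*, *Rps4l*, *Rps3* and *Rpl23*, and in each of them at most 2 of 51 GO1 cells lay above the NGO median. *Rps23*, a small-subunit protein at the decoding centre, lies at chr13:91062727-91064329 (plus strand, NCBIM37, as for all gene positions here). It had 896, 142.2, 122.2, 204 and 439.8 CPM in stage order, a fall of 6.30-fold into GO1 (counting interval 6.09 to 6.52). Its NGO cells ranged from 612 to 1231 CPM around a median of 920, and 49 of 51 GO1 cells lay below the lowest of them. *Rpl9*, of the large subunit (chr5:65779603-65782682, minus strand), went 206, 31.5, 20.9, 45.8 and 55.2 CPM in stage order, a fall of 6.54-fold (6.08 to 7.04). Of its GO1 cells, 38 of 51 lay under every NGO cell and 6 had no UMI. The cells of both stages thus stood nearly apart for *Rps23* and overlapped in part for *Rpl9*. For *Rps3* (chr7:106626406-106632248, minus strand), which lines the entry of mRNA into the small subunit, the fall was 5.39-fold (5.11 to 5.70), from 318 to 58.9 CPM. Its NGO cells ranged from 151.3 to 543 CPM, and 49 of 51 GO1 cells lay below them. *Rpl23*, of the large subunit, fell from 501 to 99.8 CPM, and no GO1 cell reached its NGO median of 493 CPM. *Rpl37a*, a zinc-binding protein of the large subunit, fell from 824 to 177 CPM, with 46 of 51 GO1 cells below every NGO cell.

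The other falls were smaller and spread over both subunits. In the large subunit, *Rpl3*, which reaches to the peptidyl transferase centre, fell from 191 to 51.4 CPM, *Rpl8* from 194 to 55.9 and *Rpl13* from 1072 to 314. In the small subunit, *Rps6*, the target of the S6 kinases, fell from 587 to 206 CPM and *Rps15* from 397 to 167. *Rpl7* fell from 305 to 121.6 CPM and *Rpl36a* from 368 to 163, while their copies did not fall in the sums. Of the 73 core members tested, 35 fell in the sums (47.9%) and 0 rose, with a median log2 difference of -0.97. Of the 8 tested copies, 2 fell (*Rps4l* and *Rpl10l*, 25%) and 2 rose (25%), with a median of 0.06. Among all genes 25.7% fell and 20.6% rose. By medians of cells some core members rose as well, as given below.

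The 2 rises in the sums were those of copies. *Rpl39l*, a copy of the exit tunnel protein *Rpl39* known from male germ cells, had 171, 433, 346, 363 and 289 CPM in stage order. This was a rise of 2.53-fold (2.44 to 2.62), and 46 of 51 GO1 cells lay above the highest NGO cell (284 CPM). *Rpl37rt*, a retrotransposed copy of *Rpl37* annotated as a processed transcript at chr5:115552931-115560277 (minus strand), had 463, 1038, 921, 953 and 944 CPM, a rise of 2.24-fold (2.20 to 2.29), with 46 of 51 GO1 cells above every NGO cell. Another copy, *Rpl36al* (chr12:70283718-70285070, minus strand), went from 328 to 496 CPM. This 1.51-fold difference did not reach the limit in the sums, but by medians of cells it went from 332 to 731 CPM. *Rps12*, *Rps15a*, *Rpl37*, *Rpl7l1*, *Rpl39* and *Rps19bp1* were also higher in GO1 than in NGO, by less than 1.3-fold in the sums. Medians of cells went from 123.8 to 260 CPM for *Rps12*, 292 to 615 for *Rps15a* and 623 to 1323 for *Rpl39*, each past 2-fold. For *Rpl7l1* the medians of cells were lower in GO1, at 55.5 CPM against 90.4 CPM in NGO. By medians, 6 of 82 members were at least 2-fold higher in GO1, core members as well as copies, while 28 were at least 2-fold lower. By any amount 23 were higher by medians and 59 lower. The 2-fold counts by medians were not made over all genes. *Rps19bp1*, not a ribosomal protein, went on to its highest level later, with 216, 263, 247, 350.0 and 319 CPM in stage order.

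**Figure D3:**
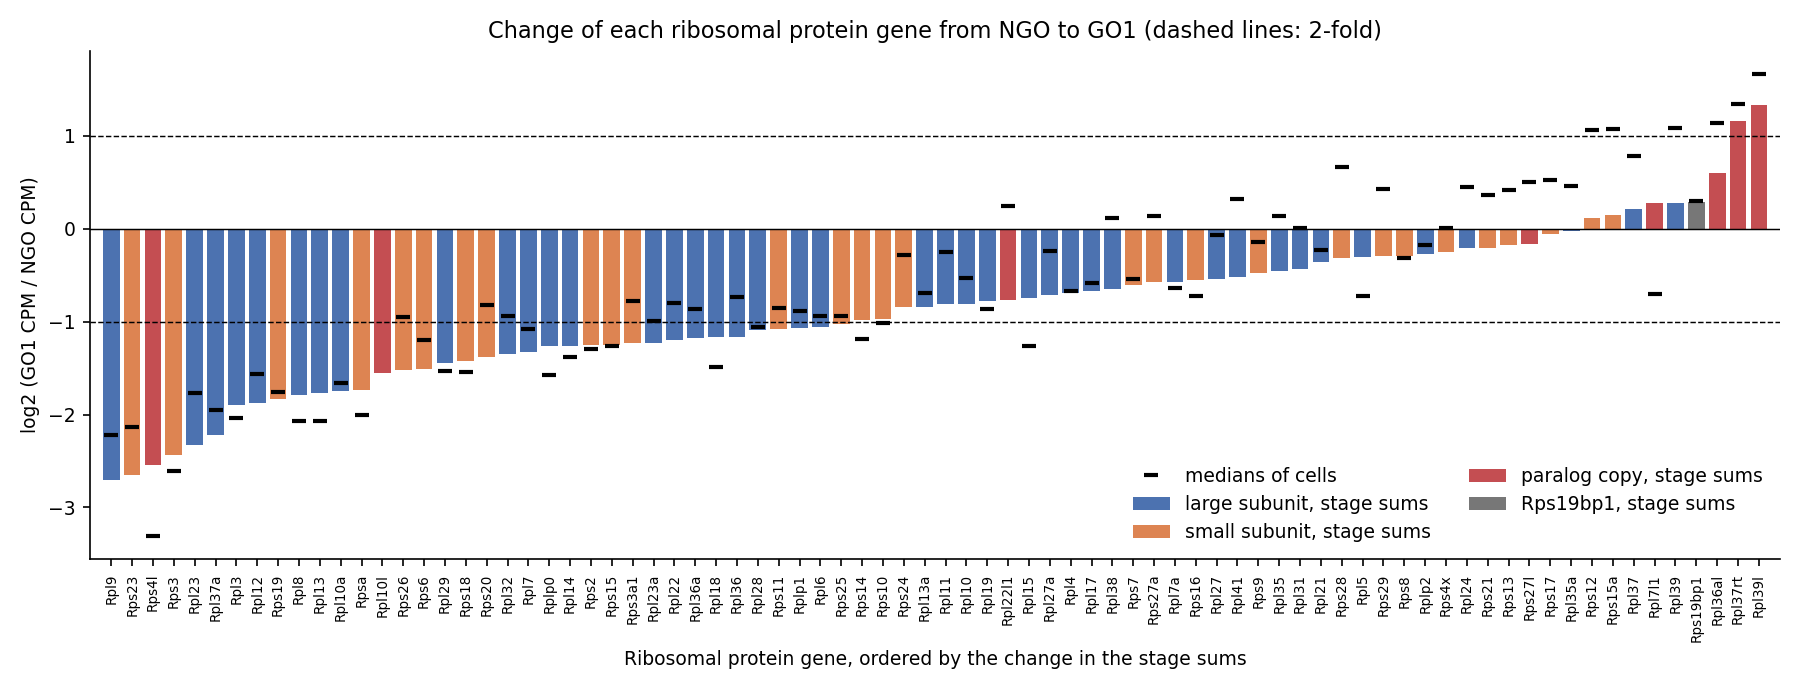
Difference of each ribosomal protein gene between NGO and GO1 (y axis, log2 of the CPM ratio), for 80 of the 82 members with at least 10 CPM in either stage, ordered along the x axis; bars are stage sums coloured by subunit or copy, black dashes are medians of cells (*Rpl10l* has none, its GO1 median being 0) and dashed lines mark 2-fold. Bars of 36 members pass the lower line and those of *Rpl37rt* and *Rpl39l* the upper, and many dashes on the right lie above their bars.

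The gap between sums and medians went with coding length. Of the 9 members of at most 300 coding bases, 3 were higher in GO1 than in NGO in the sums and 8 by medians of cells, against 5 of 71 and 13 of 70 longer ones. Over the 79 members with a known coding length and 10 CPM in either part, the log2 ratio of the other 41 GO1 cells to the 10 deepest had a Spearman coefficient of -0.69 with coding length, against -0.05 over 6765 genes of all kinds. In this split the 9 short members had a median log2 ratio of 0.98 and the 70 longer ones 0.42. Among genes of all kinds, those of at most 300 coding bases had a median of 0.47 and the longer ones -0.33. A higher level of short genes in the other cells was thus not particular to the members. *Rps28* (210 bases), at 171 CPM in the deepest cells and 530 CPM in the others, differed 3.10-fold. *Rplp0* (954 bases) had 333 and 244 CPM, and *Rpl5* (894 bases) 714 and 503 CPM. The same relation over members was -0.56 for GO2, -0.61 for GO3, -0.49 for FGO and 0.00 for NGO. Between stages, the difference from NGO to GO1 had a coefficient of -0.37 with coding length over 80 members in the sums and -0.53 over 79 by medians of cells. Over genes of all kinds these coefficients were 0.10 and 0.08. By medians of cells, however, short genes of all kinds had a median log2 difference of 0.24 and longer ones -0.42. These are descriptions over genes that share libraries, and the part of length or depth in the differences between stages was not tested.

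From GO1 onwards the set kept its order in the stage sums, and few members passed the size rule there. The rank order of the 82 members had a Spearman coefficient of 0.73 between NGO and GO1, and 0.99, 0.99 and 0.97 at the next steps, over genes counted in the same libraries. From GO1 to GO2, 0 of 81 members rose and 0 fell by the 2-fold rule in the sums, against 0.109% and 3.03% of 7356 genes. The median log2 difference was -0.22 in the members and -0.11 in all genes. *Rps12* (148.8 to 95.6 CPM), *Rpl22l1* (68.6 to 44.4) and *Rps15a* (317 to 208) had the largest decreases, 1.53- to 1.56-fold. *Rpl15* (321 to 364), *Rpl18* and *Rpl21* had the largest increases. Within GO1, the other 41 cells over the 10 deepest gave ratios of 2.36 for *Rps12*, 2.69 for *Rpl22l1* and 2.64 for *Rps15a*. For *Rpl15*, *Rpl18* and *Rpl21* these ratios were 0.75, 0.85 and 1.23. The 10 deepest GO1 cells alone had 117.6 CPM of *Rps12*, 51.6 of *Rpl22l1* and 240.3 of *Rps15a*, nearer to the GO2 sums. The part of depth in these differences was not tested. Here the weighting of the cells decided the count. By the mean over cells 19 members fell (23.5%, against 12.3% of all genes). Without the 10 deepest cells 12 fell (14.8%, against 8.24%). By medians of cells 68 of 81 members were lower in GO2, 15 of them at least 2-fold, a count not made over all genes. Over 79 members this step had a Spearman coefficient with coding length of 0.39 in the sums and 0.61 by medians of cells. Over genes of all kinds it was -0.37 and -0.14.

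From GO2 to GO3, 1 of 81 members rose and 0 fell, with 3.34% and 1.01% of 7334 genes. The member was *Rpl9*, from 20.9 to 45.8 CPM, a rise of 2.19-fold (1.99 to 2.41), and all 44 GO3 cells lay above the GO2 median of 15.03 CPM. With DESeq2 size factors it did not reach 2-fold and 0 members rose. *Rps23* (1.67-fold), *Rpl23* (1.59-fold) and *Rps6* (1.57-fold) were next, while *Rpl5* and *Rps12* were 1.16- and 1.12-fold lower in GO3. From GO3 to FGO, 2 of 81 members rose and 0 fell, with 2.41% and 3.54% of 7622 genes. *Rps23* rose 2.16-fold (2.11 to 2.21), and 39 of 56 FGO cells lay above the highest GO3 cell (393 CPM). *Rps4l* rose 2.44-fold (2.35 to 2.53), from 74.02 to 181 CPM, with 33 of 56 FGO cells above every GO3 cell. *Rpl39*, *Rpl39l* and *Rps12* went the other way, 1.25- to 1.32-fold lower in FGO.

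*Rps23* and *Rps4l*, among the deepest falls into GO1, thus had the largest rises into FGO. In the stage sums, 74 of 82 members were higher in FGO than in GO2, by 1.19-fold at the median. Against GO1, 45 were higher in FGO. Even so, 72 of the 82 stood below their NGO level at all 4 later stages, and 52 were lowest in GO2. The same counts were not made over all genes, so they only describe the sums of the members. By medians of cells the share in GO1 (3.71%) lay above that in FGO (3.00%). By any amount, 60 of 81 members and 4516 of 7334 genes were higher in GO3 than in GO2. In FGO, 63 of 81 members and 4359 of 7622 genes were higher than in GO3. Against NGO, 75 of 82 members and 4520 of 8132 genes were lower in FGO by any amount. From NGO to FGO, 30 members had fallen (36.6%) and 1, *Rpl37rt*, had risen, against 16% and 11.3% of 8132 genes. With TMM scaling 21 had fallen (25.9%) and 1 had risen, against 11.5% and 15.2% of all genes. By the mean over cells 23 had fallen (28.05%), against 20.0% of all genes. *Rpl8* (194 to 50.6 CPM), *Rpl9*, *Rpl37a* and *Rpsa* (236 to 64.1 CPM) were 3.67- to 3.83-fold lower in FGO than in NGO.

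**Figure D4:**
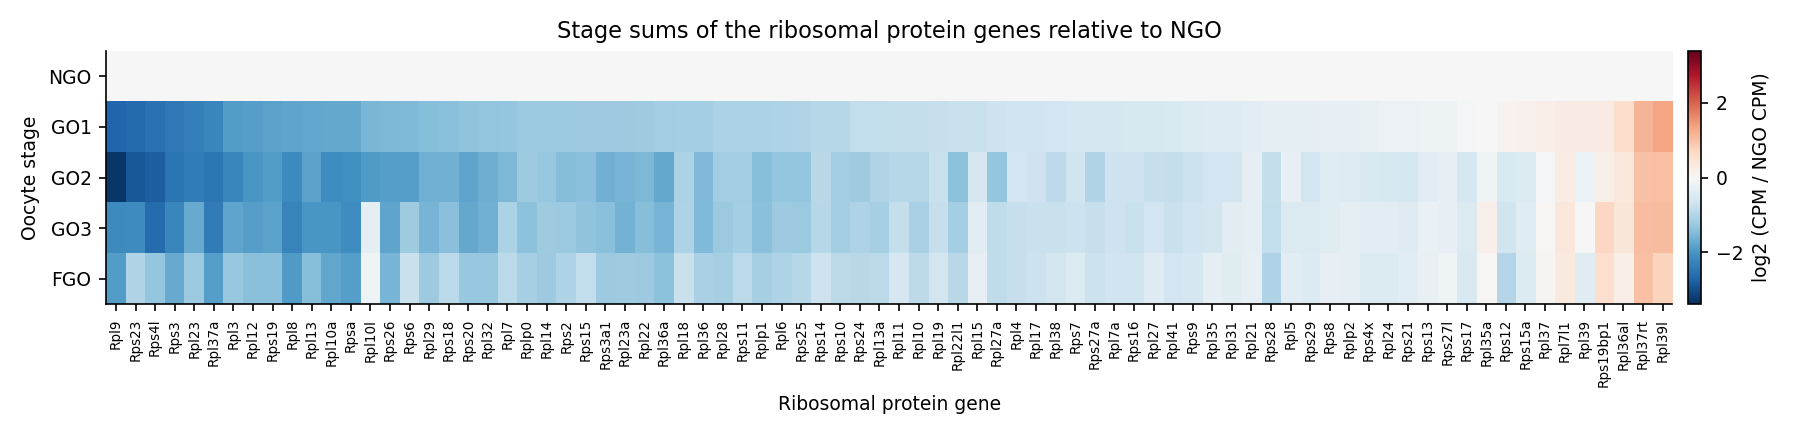
CPM of 80 of the 82 members in the stage sums relative to NGO (colour, log2 ratio), with stages as rows and genes as columns in the order of their difference from NGO to GO1. Most columns are blue from GO1 to FGO, *Rpl37rt* and *Rpl39l* are red in all 4 later stages, and *Rps23*, *Rps4l* and *Rpl23* are paler in FGO than in GO2.

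By place in the ribosome, each of 4 groups had a median below 0 from NGO to GO1, between -0.56 and -1.17 on the log2 scale, beside 25.7% of all genes that fell at this step. The P stalk, which brings elongation factors to the ribosome, fell in 3 of its 4 members. *Rplp0* went from 759 to 316 CPM, *Rpl12* from 224 to 61.1 and *Rplp1* from 375 to 179, whereas *Rplp2* went from 428 to 353 CPM, a 1.21-fold difference. *Rpl5* and *Rpl11*, which bind 5S rRNA and the p53 regulator *Mdm2*, did not reach 2-fold. *Rpl5* went from 832 to 673 CPM, and *Rpl11* from 659.7 to 376 CPM. Around the exit tunnel, 2 of 7 tested members fell (*Rpl23a* and *Rpl22*), a share of 28.6% that is near that of all genes, and of the 14 proteins of the head of the small subunit 7 did, among them *Rps3* and *Rps19* (555 to 156.1 CPM). *Rpsa*, the small-subunit protein also known as a laminin receptor, had 236, 71.02, 55.7, 54.1 and 64.1 CPM in stage order, so it fell at the first step and stayed low.

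*Rpl41*, *Rpl35*, *Rps29* and *Rpl37rt* were among the members of highest mean CPM. The 5 highest members of a stage held 17.5% of the ribosomal protein UMIs in NGO and 20.1% to 20.7% at the later stages. *Rpl35* had 1498, 1096, 958, 973 and 1182 CPM and *Rps29* 1407, 1149, 891, 1007 and 1022 CPM in stage order. *Rpl35*, *Rps29* and *Rpl41* passed the 2-fold rule in none of the 5 comparisons of stage sums, and *Rpl37rt* did from NGO to GO1 and from NGO to FGO.

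The balance between a copy and its parent differed between stages as well, and such a share does not depend on how stages are scaled. Of the UMIs of *Rpl36al* and *Rpl36a* together, the copy held 47.1%, 75.3%, 79.3%, 78.1% and 73.4% in stage order. The cells of NGO ranged from 32.1% to 64.7% and those of GO2 with at least 20 UMIs in the pair from 66.6% to 86.1%, with no overlap. *Rpl39l*, shown above, held 22.98%, 38.3%, 40.7%, 38.7% and 39.9% of its pair with *Rpl39*. *Rpl37rt* held 42.4%, 58.7%, 60.6%, 59.7% and 58.2% of its pair with *Rpl37*, whose likeness in sequence was not computed, so that how reads were split between them is uncertain. *Rpl7l1* held 22.5%, 46.9%, 49.8%, 44.2% and 41.03% of its pair with *Rpl7*. In these 4 pairs the copy held more in each later stage than in NGO. In GO1 cells the medians were lower than the sums for *Rpl39l* (31.02%), *Rpl7l1* (29.7%) and *Rpl37rt* (53.3%).

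The pair of *Rps4x* (chrX:99380280-99384733, minus strand) and its copy *Rps4l* (chr6:148303178-148304120, plus strand) went the opposite way. *Rps4l* held 57.1%, 21.4%, 21.3%, 22.1% and 42.4% in stage order, with medians of cells of 55.5%, 11.9%, 18.6%, 19.8% and 40.1%. *Rps4x* itself had 338, 284, 237, 261 and 245 CPM, a narrower range, while the copy had 450.0, 77.3, 64.1, 74.02 and 181 CPM. Its coding sequence is 79.8% identical to that of *Rps4x*. *Rpl22l1* stayed near its parent *Rpl22*, with 44.7% to 52.2% of the pair. *Rpl10l*, which stands in for the X-linked *Rpl10* in male meiosis, never held more than 2.36% of its pair, the lowest being 0.73% in GO2 (95% interval 0.57 to 0.93).

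**Figure D5:**
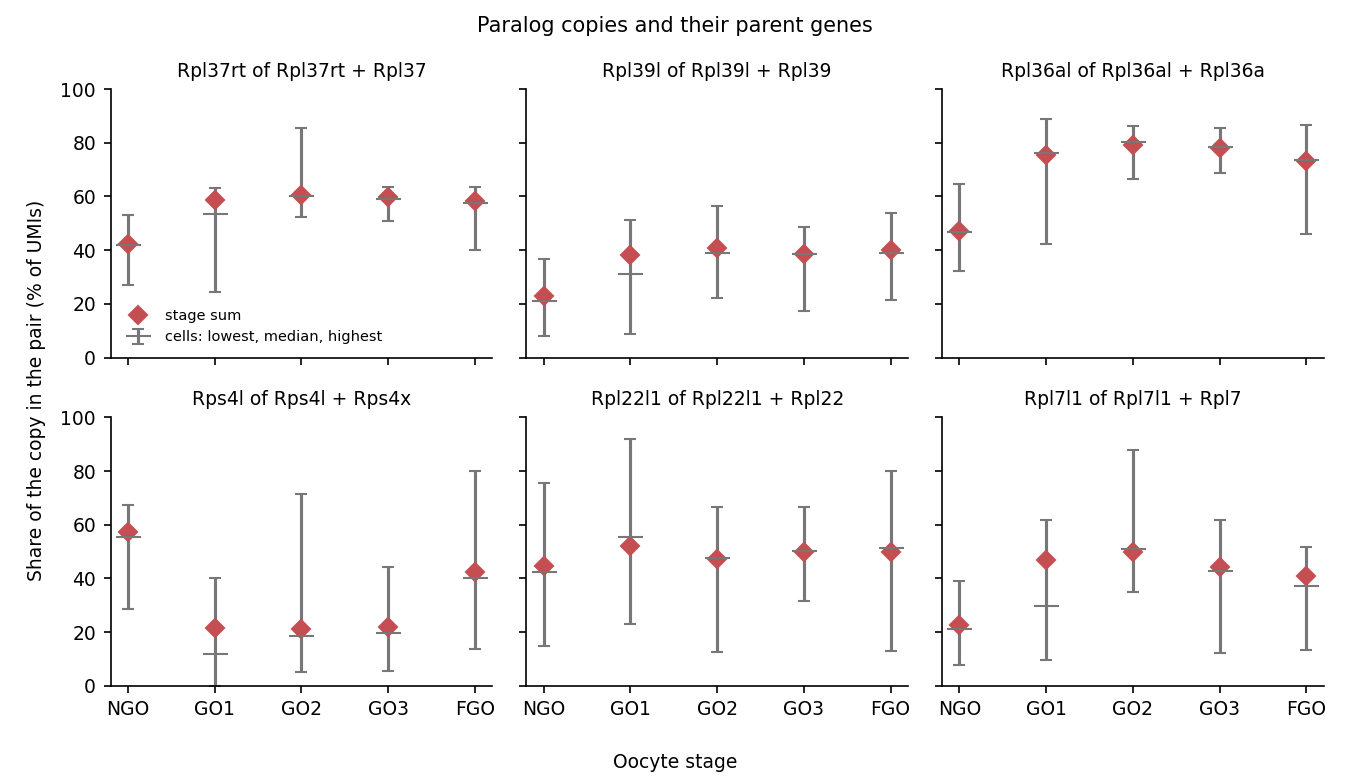
Share of a paralog copy in the UMIs of the copy and its parent (y axis, percent) by stage (x axis) for 6 pairs; red diamonds are stage sums, grey bars run from the lowest to the highest cell with at least 20 UMIs in the pair and the tick marks the median cell. *Rpl36al*, *Rpl39l*, *Rpl37rt* and *Rpl7l1* lie higher after NGO, and *Rps4l* goes from 57.1% in NGO to 21.3% in GO2 and 42.4% in FGO.

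Of the 89 members, 7 never reached 10 CPM, and 4 of these (*Rpl26*, *Rpl30*, *Rpl34* and *Rps27*) are core proteins of the ribosome. *Rpl26* had 0 UMIs in all 5 stages, *Rpl30* 1 UMI in NGO and 1 in FGO, *Rps27* 2 in NGO and 3 in GO1, and *Rpl34* 14 in NGO and 3 in each later stage. In a stage sum, a count of 0 allows up to 0.119 CPM in NGO and 0.047 CPM in FGO. *Rps27l*, a p53-induced copy of *Rps27*, was counted at 759, 678, 621, 622 and 684 CPM. The other 3 were *Rps27rt* at 0 throughout, *Rpl3l* (4 UMIs in NGO, 0 later), known from muscle, and *Rpl32l* (6 UMIs in NGO, 5 in FGO). The coding sequence of *Rps27rt* (chr9:114891515-114891858, minus strand, NCBIM37) is 100% identical to the 255 bases of *Rps27*. How reads with several equal matches were counted is not given in the sources used here, so values of members with near-identical copies are uncertain. Of 86 members with a coding sequence, 67 had at least 1 unspliced copy in the genome at 98% identity over 95% of the length, 239 copies in all and 14 at most (*Rpl21*). The 12 core members with no such copy had a median log2 difference from NGO to GO1 of -1.06, with 7 falls (58.3%). The 60 tested core members with a copy had -0.86, with 28 falls (46.7%), beside 25.7% of all genes that fell.

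Promoters of the members shared sequence features that the rule had not used. Of the 89, 68 matched a RefSeq promoter (GRCm38.p6, 250 bases before to 50 after the annotated start). A run of at least 8 pyrimidines (C or T, sense strand) within 30 bases of the start stood in 63.2% of them, against 27.2% of 27025 promoters. Such a run need not lie in the mRNA, and that of *Rpl13*, 10 bases beginning at -16, lies before the annotated start. A single annotated start was used per gene, so a tract at another start would be missed. The other motifs were searched in all 300 bases on both strands, where the ETS motif read backwards can share pyrimidines with a tract. The ETS motif CCGGAAG stood in 36.8% against 9.12%, the YY1 motif AAGATGG in 13.2% against 6.48%, and the TATA motif TATAAA in 10.3% against 14.2%. Windows of 30 bases on each side of the start are given with the tract in capitals, for members that fell from NGO to GO1 with a tract (*Rps6*, *Rpl13*) and without one (*Rps3*, *Rpl12*) and for members with a tract that did not pass the rule (*Rpl35*, *Rplp2*).
Rps6 (chr4:86857338-86857397, minus strand): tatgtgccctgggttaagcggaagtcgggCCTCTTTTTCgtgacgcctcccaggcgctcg
Rpl13 (chr8:123102320-123102379, plus strand): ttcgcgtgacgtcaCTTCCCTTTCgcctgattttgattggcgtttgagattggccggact
Rps3 (chr7:99483680-99483739, minus strand): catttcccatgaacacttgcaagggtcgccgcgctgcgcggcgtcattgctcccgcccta
Rpl12 (chr2:32961682-32961741, plus strand): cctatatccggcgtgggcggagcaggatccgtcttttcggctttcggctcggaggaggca
Rpl35 (chr2:39005102-39005161, minus strand): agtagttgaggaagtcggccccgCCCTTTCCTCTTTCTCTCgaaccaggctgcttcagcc
Rplp2 (chr7:141447621-141447680, plus strand): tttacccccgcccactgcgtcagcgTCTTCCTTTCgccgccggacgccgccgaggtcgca
The difference between members with and without a tract was not tested. From NGO to GO1 the median log2 difference was -0.76 over 39 members with a tract and -0.78 over 23 without one. The falls were 15 and 10 (38.5% and 43.5%, against 25.7% of all genes). From NGO to FGO, 11 of the 39 fell (28.2%) and 10 of the 23 (43.5%), against 16% of all genes, with medians of -0.79 and -0.67. For the ETS motif the medians from NGO to GO1 were -0.73 over 24 members with it and -0.83 over 38 without it, and from NGO to FGO -0.62 and -0.90. A motif match is a description of these letters and not a binding site.

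Lists of genes that make, accompany or control ribosomes had medians from NGO to GO1 nearer to that of all genes (-0.15) than the members did. Their counts stand beside the 25.7% of all genes that fell and the 20.6% that rose. The 78 mitochondrial ribosomal proteins, which build the ribosome of the mitochondrion, went from a summed 10571 to 12650 CPM, with 5 rises and 13 falls of 77 and a median log2 difference of -0.13, which TMM scaling would place above 0. *Mrps33* (611 to 2026 CPM) and *Mrps31* (76.4 to 333) rose most, and *Mrpl19* and *Mrps34* fell most. Translation factors (66 genes) went from 16598 to 14402 CPM, with 5 rises and 14 falls of 57 and a median of -0.34. *Eif4e3* (172 to 685 CPM) and *Eif5b* (352 to 1362) rose 3.99- and 3.87-fold. Small-subunit assembly factors had 4 rises and 6 falls of 38 (median 0.12), large-subunit assembly factors 2 and 11 of 36 (median -0.32), and genes of RNA polymerase I 0 and 4 of 12 (median -0.68). *Sbds*, which releases *Eif6* from new large subunits, rose from 94.3 to 334 CPM, while the rRNA methylase fibrillarin (*Fbl*) fell from 135.3 to 14.7 and *Nop2* from 51.3 to 5.35. With 1 pooled sample per stage these differences between lists were not tested.

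The symbol rule also leaves out genes whose products are parts of the cytoplasmic ribosome. *Rack1*, of the small-subunit head, fell from 207 to 82.3 CPM, and *Fau*, a fusion with *Rps30*, had 991 and 756 CPM. In the list of regulators of terminal oligopyrimidine mRNAs, 3 of 15 tested genes fell (20%, against 25.7% of all genes) and none rose. Among them was *Eif4ebp1*, the mTORC1 target that holds back cap-dependent translation, with 249, 4.30, 5.93, 9.19 and 34.6 CPM in stage order. Of the 10 tested genes for storage and rescue of ribosomes, 3 fell (30%, near the share of all genes) and none rose, with *Dap* going from 26.2 to 1.64 CPM and *Rnf10* from 150.5 to 51.7 CPM.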

How the data were processed

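Single oocytes had been sequenced as 4 libraries with cell barcodes and UMIs. The authors assigned reads by barcode, trimmed them, aligned them with Tophat (v2.0.12) to the mm9 transcriptome, collapsed duplicates by UMI and deposited counts per gene and cell that were not normalized. Cells with few genes or extreme totals had been removed by them. Annotation release, use of strand and treatment of reads with several matches are not given in the sources used here. Counts of a stage were added up and scaled to CPM, with exact binomial 95% intervals. No pseudocount was used. The members, gene lists and size rule (2-fold, 10 CPM) were chosen with earlier results of these data known. Values in full are given for the 5 members of highest mean CPM, the 3 largest rises and falls of each step, paralog copies, *Rps19bp1*, the P stalk, *Rpsa*, *Rpl5*, *Rpl11* and members at 0, and for up to 2 rises and 2 falls from NGO to GO1 of other lists, other members being named as examples after their values were seen. Scaling by edgeR (TMM) and DESeq2 size factors, no filter, 50 CPM, a 1.5-fold limit, mean or median over cells, thinned cells, 26 cells a stage and sums without the 10 deepest cells were tried, and cells of 100000 to 1000000 UMIs after seeing the data. No doublet caller was run on these hand-picked cells. Coding sequences were GENCODE vM1 (NCBIM37), copies were found by blastn 2.17.0, and promoters were RefSeq (GRCm38.p6). Python 3.11.15, pandas 2.3.3, scipy 1.17.1, R 4.3.3, edgeR 4.0.16 and DESeq2 1.42.0 were used. The DNA methylation and accessibility data were not analysed here, and the values of a few genes are not reported here.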

Additional observations from a re-analysis of the deposited data

How the results depend on the processing

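NGO had the highest and GO2 the lowest share of UMIs under every setting tried here, while the values moved beyond counting error and GO1 and FGO changed places. In NGO, GO1, GO2, GO3 and FGO the share was 4.61%, 3.63%, 2.38%, 2.63% and 3.10% as the mean over cells, 4.48%, 3.71%, 2.44%, 2.51% and 3.00% as the median, 4.67%, 3.70%, 2.51%, 2.64% and 2.98% without the 10 deepest cells, and 4.59%, 3.64%, 2.38%, 2.60% and 3.12% in cells thinned to 20000 UMIs. It was 4.14%, 2.39%, 2.09%, 2.19% and 2.45% without the copies and *Rps19bp1*, and 4.62%, 3.37%, 2.54%, 2.69% and 3.28% in cells of 100000 to 1000000 UMIs. With 26 cells in every stage it was 4.50% in NGO, 2.63% in GO1, 2.47% in GO3 and 2.82% in FGO. FGO lay above GO1 in the sums, with 26 cells and without the copies, and GO1 above FGO at the other settings.

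Counts of members past the size rule moved with the weighting of cells and with the fold limit. From NGO to GO1, 2 rises became 6 by the mean over cells, 5 without the 10 deepest cells and 6 in thinned cells, and 27 to 52 members fell in place of 37. In thinned cells 27 fell (33.3%, against 34.9% of all genes), and in cells of 100000 to 1000000 UMIs 28 fell (34.1%, against 33.6%). At a 1.5-fold limit 52 fell (63.4%, against 36.4%). The share of falls also lay above that of all genes with TMM or DESeq2 scaling, 26 cells, no filter and 50 CPM. From GO1 to GO2, 0 falls became 19 by the mean over cells (23.5% of members, against 12.3% of all genes). Without the 10 deepest cells 12 fell (14.8%, against 8.24%), and in thinned cells 22 fell (27.2%, against 15.9%). The remaining shares lay below those of all genes. In cells of 100000 to 1000000 UMIs 5 fell (6.17%, against 9.84%), and with no filter 1 fell (1.19%, against 15.6%). At a 1.5-fold limit 5 fell (6.17%, against 14.1%). From GO2 to GO3, the 1 rise became 0 with DESeq2 size factors or at 50 CPM, 4 at 1.5-fold and 2 by the mean over cells, without the deepest cells, in thinned cells, with no filter or in cells of 100000 to 1000000 UMIs. The 4 rises were 4.94% of members, against 10.5% of all genes. Where 2 rose, they were 2.41% to 2.47% of members, against 5.09% to 16.6% of all genes. From GO3 to FGO, 2 rises became 5 in thinned cells (6.17%, against 6.80% of all genes) and 4 with no filter (4.71%, against 14.9%). From NGO to FGO, 1 rise became 2 (2.44%, against 21.1% of all genes) and 30 falls became 55 (67.1%, against 30.0%) at 1.5-fold. The other 80 values stayed within 1.5 times the count as given or within the counting interval of the share. No paired analysis was possible because the cells carry no library or animal number and no replicate could be left out. With 1 pooled sample per stage, neither the spread between libraries nor that between mice enters any interval.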

Other observations

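Rows with a hyphen in the symbol, which the rule leaves out, are pseudogenes of the members and held few UMIs. From NGO to FGO, *Rps15a-ps4* went from 14.8 to 7.93 CPM and *Rpl14-ps1* from 14.2 to 5.15 CPM. *Rpl31-ps12*, *Rps15a-ps6* and *Rps19-ps3* stayed under 4 CPM at all 5 stages. *Rpl34-ps1* and *Rplp2-ps1* had 0 UMIs throughout.

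Summed translation factors had 16598, 14402, 13781, 13410 and 13380 CPM from NGO to FGO, and summed mitochondrial ribosomal proteins 10571, 12650, 12322, 12662 and 12703 CPM, so the mitochondrial set was 0.240 times the cytoplasmic set in NGO and 0.521 times it in GO2.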
